A study of Mus musculus with 2 samples.

Results

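Interferon response genes were followed in the newborn mouse lens, in lenses labelled as lacking the forkhead transcription factor Foxp1 and in lenses of control litter mates. The group is a list of 39 genes, given by symbol and taken from the arrays by matching the RefSeq transcript accession of each probe to a mouse gene symbol. Of the 39 genes, 37 had a probe, out of 20655 genes named on the arrays in all. No probe matched Mx1 or Mx2 by this route, and these 2 genes were not analysed here. The 37 genes were read by 42 probes. The study held 2 samples, 1 knockout array and 1 control array, both hybridised with Cy3-labelled total RNA of lens at postnatal day 0. The knockout sample is labelled Foxp1 KO, a lens-specific deletion, and the control sample is labelled wild-type. Both are of C57BL/6 mixed background, and the text on treatment gives Foxp1-flox/flox with Pax6-L-Cre for both, so the labels do not settle which of these alleles the control mice carried. The Cre driver takes its name from Pax6, an eye development gene. The labels do not give the number of animals behind each RNA, their sex, or any infection or interferon treatment. With 1 array per genotype there is no replicate to set a difference against, so all differences are those of 2 RNA samples. Both arrays lay on 1 slide, where the genotype cannot be told apart from the place on the slide.

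Interferons are secreted proteins of antiviral defence. Type I interferon binds the receptor chains Ifnar1 and Ifnar2, and the kinases Jak1 and Tyk2 then activate Stat2, which joins Irf9 in a complex that binds the interferon-stimulated response element (ISRE) in the promoters of target genes. Targets of interferon gamma carry a different element, the gamma-activated site (GAS). Cytosolic RNA sensors such as Ddx58 and Ifih1 lie upstream of interferon production, and many target genes are kept at a low basal level in uninfected tissue. The lens is enclosed by a capsule and has no blood vessels of its own, although at birth it is still surrounded by the hyaloid vessels and their macrophages.

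The signal used is the brightness of a spot after background subtraction, in intensity units. The lowest signal that the scanner software called well above background was 12.1 for the knockout array and 20.6 for the control array. Negative control spots had a median processed signal of 2.76 for the knockout array and 4.71 for the control array. Differences are knockout minus control on the log2 scale after each array was scaled to the 75th percentile of its own signals, which was 279.9 for the knockout array and 283 for the control array. A gene counted as measured when a probe of it was well above background on both arrays. The SD of the difference of 1 spot, from probes printed at least 5 times, was 0.27 for mean signals under 100, 0.13 from 100 to under 1000 and 0.11 above that, and it covers spot noise only. Dim signals differed between the arrays in general. A spike-in RNA that read 37.8 with the knockout sample and 86.7 with the control sample had a difference of -1.16, whereas another that read 258 and 283 with these samples had a difference of -0.13. A dimmer spike-in RNA read 6.87 and 55.2 with the knockout and control samples, a difference of -3.10. It was well above background on the control array only. Among the 3543 measured genes with a mean signal under 100 the median difference was -0.39, against 0.05 among the 10711 genes at 100 and over. The targeted gene Foxp1 was lower in knockout lens with each of its 3 probes, with differences between -1.33 and -1.84. Lens identity was clear on both arrays, where all 16 lens markers were measured and the probe for the lens crystallin Crybb3 read 426431 in knockout lens and 471452 in control lens.

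Interferon response genes gave weak signals in both lenses, and most of those measured were lower in knockout lens. Of the 37 genes, 23 were measured on both arrays (62.2%, against 69.0% of all named genes), 3 were above background in knockout lens only (8.11%, against 2.29% of all named genes), 4 in control lens only (10.8%, against 8.76%), and 7 on neither (18.9%, against 19.8%). The shares in control lens only and on neither array were thus near those of all genes. The 23 measured genes had a median signal of 80.2 in knockout lens and 108 in control lens, compared with 412 and 391 over all measured genes. Of the 23, 19 had a difference below 0 and 4 above 0, and their median difference was -0.58, against 0.01 over all 14254 measured genes. At least 2-fold lower were 4 genes, Ifi44, Irf5, Gbp3 and Isg15, and 0 were at least 2-fold higher. Over all measured genes 5.86% were at least 2-fold lower and 1.02% at least 2-fold higher. The sign of the group's median depended on scaling. Scaling by the array medians raised the median of all genes to 1.08 and that of the group to 0.49. The array medians were 23.6 and 50.2 for the knockout and control arrays, in the dim range where the arrays differed in general. After scaling by the 75th percentile the brightest spike-in RNA, at 244213 and 248342 on these arrays, had a difference of -0.01. Relative to the median of all genes the group's median lay at -0.59 under both scalings, at -0.35 after loess and at -0.08 after quantile normalization. Because each sample is bulk RNA, fewer cells of a type and less RNA per cell cannot be told apart.

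**Figure D1:**
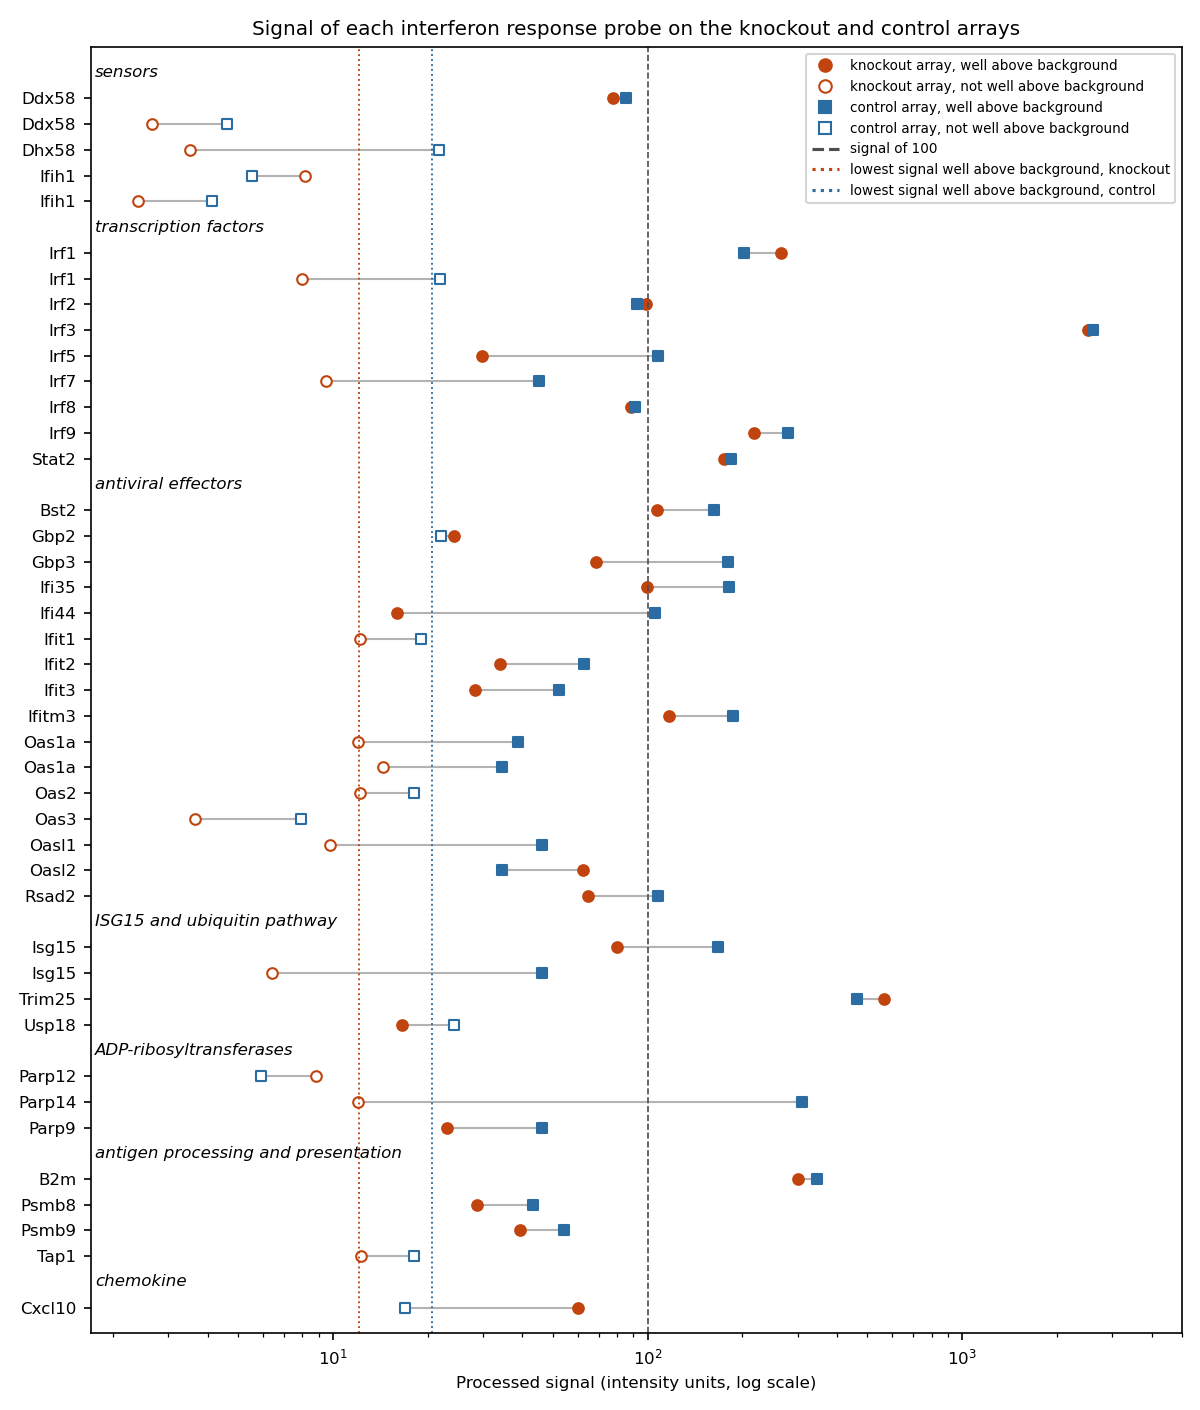
Processed signal of each of the 42 interferon response probes in knockout lens (circles) and control lens (squares), on a log axis and grouped by role. Filled symbols are well above background and open ones are not, the dashed line marks a signal of 100, and the dotted lines mark the dimmest well-above-background spot of each array. Most circles lie left of their squares, and Irf1, Irf2, Gbp2, Oasl2, Trim25 and Cxcl10 have a filled circle to the right of its square.

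The genes of the list were then set beside all genes of like signal. Of the 12 measured genes with a mean signal under 100, 10 lay below 0, as did 76.9% of all measured genes in that range, and 2, Ifi44 and Irf5, were at least 2-fold lower, where 20.0% of all measured genes in that range were, and 0 were at least 2-fold higher, where 1.07% were. Their median was -0.65, against -0.39 for all genes in the range, and 8 of the 12 lay below that class median. Of the 11 genes at 100 and over, 9 lay below 0 and 2, Gbp3 and Isg15, were at least 2-fold lower, where 1.19% of all measured genes in that range were. Their median was -0.34, against 0.05 for all genes there, and 39.9% of all genes in the range lay below 0. Gbp3, Isg15 and Ifi35 read under 100 in knockout lens and were in this range through their control signal alone, so both 2-fold calls rest on genes that the difference itself helped to place there. Of the 8 genes that read 100 and over on both arrays, a limit chosen after the values were seen and one that takes out genes low on 1 array, 6 lay below 0 and 0 were at least 2-fold lower, where 0.676% of all such genes were. Their median was -0.12, against 0.06 for all 10348 genes of this kind. The 9 lower genes at 100 and over were also below 0 under loess and normexp background correction, which left the median of the 11 at -0.32 under both, whereas 8 of the 11 were below 0 after quantile normalization and 1 after scaling by array medians.

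**Figure D2:**
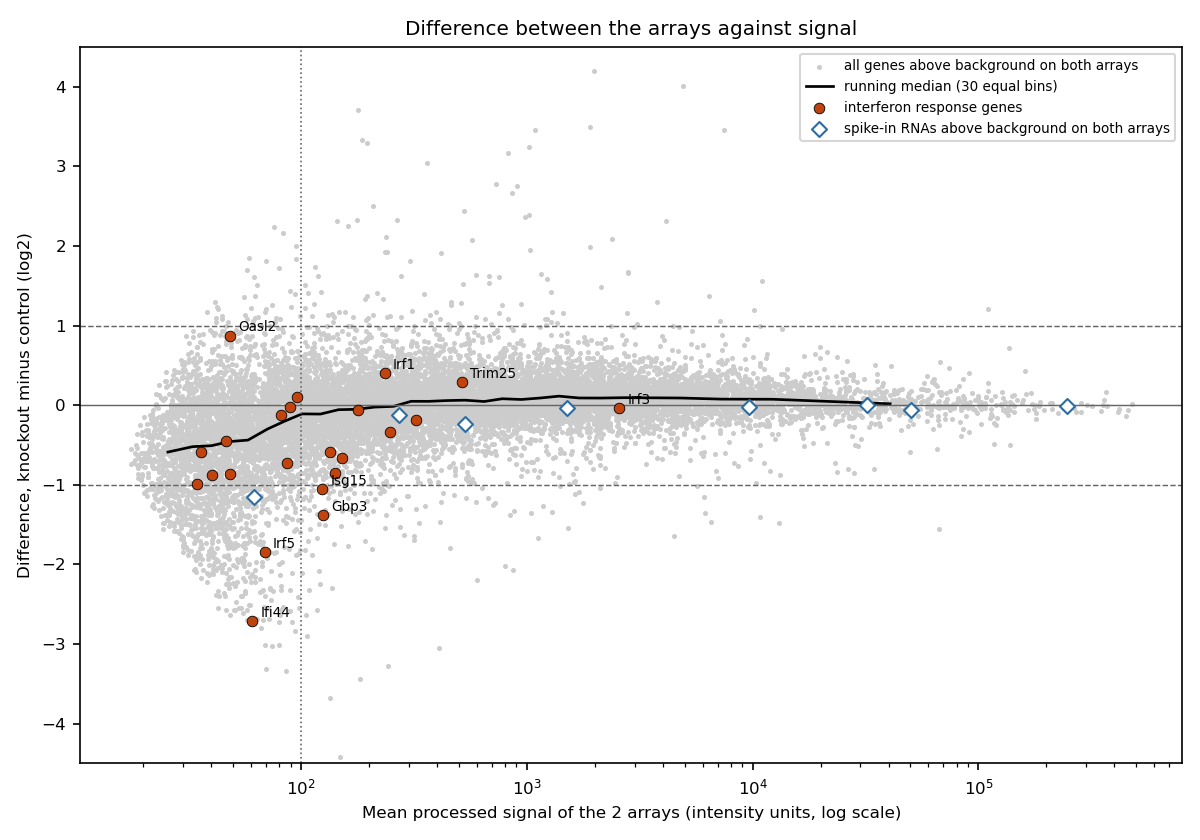
Difference between the arrays (log2, knockout minus control) against the mean processed signal of both arrays on a log axis. Grey points are the 14254 measured genes, the black line is their running median, orange points are the 23 measured interferon response genes and open diamonds are spike-in RNAs. Dashed lines mark 2-fold and the dotted line a signal of 100. The running median and the dimmest spike-in shown bend below 0 at low signal, and Ifi44, Irf5, Gbp3 and Isg15 lie below the lower dashed line.

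The promoters of the list were read from RefSeq sequence of build GRCm38.p6, in windows from 250 bases before to 50 after each gene start. The table held 32 of the 39 genes. Parp9, Parp14, Usp18, Dhx58, Oas2, Mx1 and Mx2 were not among them. The ISRE core was searched as GAAA, any 2 bases, then GAAA, and as TTTC, any 2 bases, then TTTC for the other strand, and overlapping matches were allowed. It was present in 16 of the 32 genes, against 3.99% of all 27025 genes in the table. The GAS core TTCNNNGAA, whose N is any base and which reads the same on both strands, was present in 9 of the 32 (28.1%), against 9.55% of all genes. The stretches below are shown because they hold ISRE cores, in capitals, before the start of 8 genes of the list. Each is written 5′ to 3′ on the strand of its gene.
Isg15, chr4:156200850-156200921, minus strand: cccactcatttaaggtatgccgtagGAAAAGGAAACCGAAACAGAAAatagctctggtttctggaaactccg
Gbp3, chr3:142559974-142560039, plus strand: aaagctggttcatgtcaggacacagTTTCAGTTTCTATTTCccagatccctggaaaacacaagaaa
Ifit3, chr19:34583348-34583441, plus strand: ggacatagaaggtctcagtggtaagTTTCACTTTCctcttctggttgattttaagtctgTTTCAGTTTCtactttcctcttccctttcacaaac
Ifit1, chr19:34640760-34640838, plus strand: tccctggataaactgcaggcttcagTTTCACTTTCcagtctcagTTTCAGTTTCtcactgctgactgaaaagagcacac
Rsad2, chr12:26456538-26456597, minus strand: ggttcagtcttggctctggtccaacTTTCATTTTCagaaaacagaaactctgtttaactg
Bst2, chr8:71537562-71537627, minus strand: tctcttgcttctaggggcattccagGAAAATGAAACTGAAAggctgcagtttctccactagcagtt
Cxcl10, chr5:92349068-92349127, minus strand: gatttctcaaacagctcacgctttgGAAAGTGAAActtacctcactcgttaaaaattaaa
B2m, chr2:122147523-122147582, plus strand: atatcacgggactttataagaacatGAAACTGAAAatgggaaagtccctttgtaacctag

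Isg15 carried 3 overlapping ISRE cores between 78 and 66 bases before its start, and Gbp3 carried 2 overlapping cores at 45 and 39 bases. Ifit3 and Ifit1, both on chromosome 19, each carried 2 separate cores. Of the list's measured genes with an ISRE core in the window, 9 of 10 lay below 0 and 2 were at least 2-fold lower, with a median difference of -0.62. Of those without a core, 9 of 12 lay below 0 and 2 were at least 2-fold lower, with a median of -0.40. Over all measured genes 49.1% lay below 0 and 5.86% were at least 2-fold lower. The sets with and without a core were not matched for signal, and whether they differ was not tested. Ifi44 and Irf5, which had the lowest differences of the list, had no match to either core in the window. A match is a run of letters and not a measured binding site.

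Of the 3 RNA sensors of the list, 1 was measured. Ddx58, which encodes the sensor RIG-I, read 77.7 in knockout lens and 85.3 in control lens with its brighter probe, a difference of -0.12 (spot SD 0.27). Its other probe was not well above background on either array. Ifih1, the sensor MDA5, read 2.40 and 8.13 with its 2 probes in knockout lens and 4.11 and 5.55 in control lens, all not well above background. Dhx58, the related helicase LGP2, read 3.52 in knockout lens and 21.8 in control lens, also not called above background on either.

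The transcription factors of the pathway were the best measured role, with 7 of 8 genes above background on both arrays and a median difference of -0.03. Irf3, the factor that sensors activate to start interferon transcription and that is present in most cells without interferon, read 2518 in knockout lens and 2602 in control lens, a difference of -0.03 (spot SD 0.11). Stat2 read 174 in knockout lens and 184 in control lens, a difference of -0.07. Irf9, the DNA-binding partner of Stat2, read 218 in knockout lens and 279 in control lens, a difference of -0.34 (spot SD 0.13). Irf3 and Stat2 differed by less than the spot SD and Irf9 by more. Irf1, an activator induced by interferon gamma, read 266 in knockout lens and 203 in control lens, a difference of 0.40. A second Irf1 probe, not well above background on either array, read 7.99 in knockout lens and 21.8 in control lens. Irf2, which opposes Irf1 at shared sites, read 98.9 and 92.9 on the knockout and control arrays, and Irf8, a factor of the myeloid lineage, read 88.4 and 91.0. Both differed by less than the spot SD.

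The other 2 factors were lower in knockout lens. Irf5, a factor of Toll-like receptor signalling in myeloid cells, read 29.8 in knockout lens and 108 in control lens, a difference of -1.84 (spot SD 0.27) or 3.59-fold lower. It stayed at least 2-fold lower in 8 of the 10 settings that gave it a value, with differences between -1.97 and -0.77 over those settings. With 1 probe and 1 spot, the settings on filter, outlier spots and probe choice only repeat the reported value. Irf5 fell short of 2-fold with normexp correction, at -0.94, and with array medians, at -0.77. Irf7, the amplifier of the type I response, read 9.50 in knockout lens, not well above background, and 45.2 in control lens, and was at least 3.69-fold lower. Each of the pair was read by 1 spot. Bounds of this kind were common among genes above background in control lens only, of which 92.9% were at least 2-fold lower. A spike-in RNA was likewise well above background on the control array only, at 6.87 with the knockout sample and 55.2 with the control sample.

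Antiviral effectors made up 17 of the 39 genes. Of these 15 had a probe and 9 were measured, 8 of them below 0, with a median difference of -0.86. Of the 9, 4 had a mean signal of 100 and over, where 39.9% of all measured genes lay below 0. The rest were dimmer, in the range where 76.9% did and the median was -0.39. Ifi44, an interferon-induced protein of the cytoplasm, read 15.9 in knockout lens and 106 in control lens, 6.56-fold lower with a difference of -2.71 (spot SD 0.27). It was the sole measured gene of the list at least 2-fold lower in every setting that gave it a value, between -1.12 with normexp correction and -2.84. Gbp3, a guanylate-binding protein that acts against intracellular pathogens, read 68.8 in knockout lens and 180.4 in control lens, 2.60-fold lower with a difference of -1.38 (spot SD 0.13). It was at least 2-fold lower in 8 of 11 settings, some of which only repeat the reported value. Gbp3 fell short with normexp correction, without background subtraction and with array medians, at -0.81, -0.92 and -0.30. Both genes were read by 1 spot. Gbp3 belongs to a family of similar sequences, so its reading is uncertain as that of a single gene. Its relative Gbp2 was above background in knockout lens only, at 24.2 against 22.1 in control lens. The ratio of these readings was 1.11, a difference of 0.15 that is within the spot SD of 0.27.

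Ifitm3, a membrane protein that blocks virus entry, was printed 10 times on each array and is the effector with the most spots. Its spots lay between 91.6 and 131 with a median of 118 in knockout lens, and between 159.7 and 259 with a median of 182 in control lens. The spots of the arrays did not overlap, and the share of other repeatedly printed probes for which this holds was not determined. The mean was 117 ± 11.7 in knockout lens and 187 ± 27.6 in control lens (SD over 10 spots of 1 array, technical), and the difference was -0.66 ± 0.24 (SD over 10 spots). Spots of 1 array are not biological replicates. Ifitm3 is a close relative of Ifitm2, and the Ifitm2 probe had a difference of -0.03, at 4117 in knockout lens and 4252 in control lens.

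The remaining measured effectors were each read by 1 spot. Ifit2 and Ifit3, tetratricopeptide proteins that bind foreign RNA or partners that do, read 33.9 and 28.2 in knockout lens and 62.6 and 52.4 in control lens, with differences of -0.87 and -0.88. Rsad2, viperin, which makes a chain-terminating nucleotide, read 64.9 in knockout lens and 108 in control lens, a difference of -0.72. Bst2, tetherin, which holds budding virus at the cell surface, read 107.4 and 163 on the knockout and control arrays, a difference of -0.58. Ifi35, which binds Nmi, read 99.7 and 182, a difference of -0.86. None of these 5 genes reached 2-fold, and the differences of Ifit2 and Ifit3 moved to between -0.02 and 0.11 after quantile normalization. Oasl2, an oligoadenylate synthetase-like protein, went the other way, at 62.5 in knockout lens and 34.4 in control lens, a difference of 0.87 (spot SD 0.27). It passed 2-fold after loess, after quantile normalization and with array medians.

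The oligoadenylate synthetases make the second messenger that activates RNase L. Oas1a was above background in control lens only, with both of its probes. They read 12.1 and 14.5 in knockout lens and 38.9 and 34.4 in control lens, at least 3.18-fold and 2.36-fold lower. Oasl1, a related protein without synthetase activity that restrains Irf7 translation in mice, read 9.77 in knockout lens and 46.3 in control lens, at least 3.78-fold lower. Of all genes above background in control lens only, 92.9% had a bound of at least 2-fold lower. Thus Oasl1 and Oasl2 lay on opposite sides. Oas2 and Oas3 were not well above background on either array. Ifit1 was likewise below the call, at 12.2 in knockout lens and 19.0 in control lens. The Oas genes share sequence, so their probes may not be fully specific.

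Isg15 is a ubiquitin-like protein that is attached to other proteins during the response. Its brighter probe read 80.2 in knockout lens and 168 in control lens, 2.08-fold lower with a difference of -1.05 (spot SD 0.13). Its other probe was above background in control lens only, at 6.40 in knockout lens and 46.1 in control lens, at least 3.77-fold lower. Of all genes above background in control lens only, 92.9% were at least 2-fold lower, so the second probe adds little to the first. The gene was at least 2-fold lower in 6 of 11 settings, some of which only repeat the reported value, with 0.02 under array medians. Usp18, the protease that removes Isg15 and dampens the receptor, was well above background in knockout lens at 16.5 but not in control lens at 24.2, and no fold was taken. Trim25, a ubiquitin ligase that acts on RIG-I, read 564 in knockout lens and 465 in control lens, a difference of 0.29 (spot SD 0.13). It was above 0 in each of the 11 settings.

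The ADP-ribosyltransferases of the list gave the largest bound. Parp14, which modifies proteins with ADP-ribose and tunes macrophage and interferon responses, read 12.1 in knockout lens, not well above background, and 309 in control lens, at least 25.2-fold lower. This value rests on 1 spot per array. Among repeatedly printed probes with a median signal under 100, 6 of 1840 spots in control lens read more than 8 times the median of their probe, and 5 of these exceeded a signal of 100, whereas 0 of 1860 spots did so in knockout lens. All 6 carried an outlier flag, but the population flag that marks such spots was set on 0 probes with a single spot. Whether the Parp14 reading is of this kind was not tested. Parp9, which works with the ubiquitin ligase Dtx3l, read 23.01 in knockout lens and 46.0 in control lens, a difference of -0.99 (spot SD 0.27), just short of 2-fold. Parp12, which binds viral RNA, read 8.82 and 5.92 on the knockout and control arrays, not well above background on either.

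An isolated bright spot of this kind was found within the list itself, for Tap1, the peptide transporter that loads class I molecules. Its probe was printed 10 times. On the control array 1 spot read 395 and carried the outlier flag, and 1 dim spot in knockout lens was flagged too. The 8 spots kept on both arrays lay between 9.38 and 16.3 in knockout lens and between 12.1 and 25.5 in control lens. Over the 8 kept spots the mean was 12.2 ± 2.57 in knockout lens and 18.1 ± 5.73 in control lens (SD over spots), with 2 and 1 spots well above background. Tap1 therefore counted as above background on neither array.

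**Figure D3:**
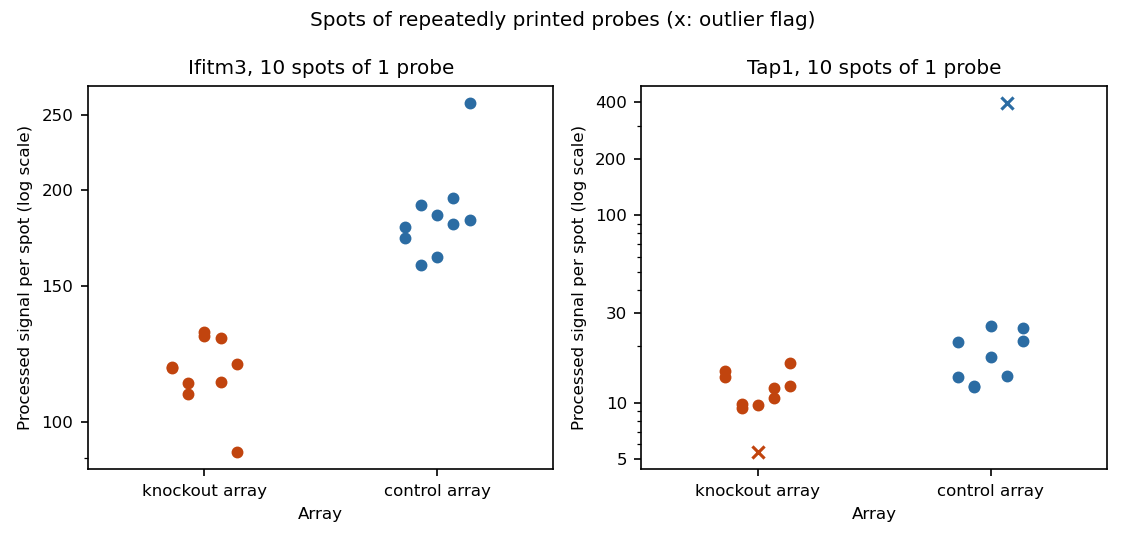
Processed signal of every spot of the Ifitm3 probe (left) and the Tap1 probe (right) in knockout lens and control lens, on log axes. Crosses carry the outlier flag. The 10 Ifitm3 spots lie between 91.6 and 131 in knockout lens and between 159.7 and 259 in control lens. The flagged Tap1 spot in control lens reads 395.

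None of the antigen processing genes of the list reached 2-fold. B2m, the invariant light chain of class I molecules, read 301 in knockout lens and 345 in control lens as the mean of 2 spots, a difference of -0.18 ± 0.02 (SD over 2 spots). Psmb8 and Psmb9, the catalytic subunits that interferon places in the immunoproteasome, read 28.6 and 39.2 in knockout lens and 43.3 and 54.1 in control lens. Their differences of -0.59 and -0.45 compare with -0.39 for all genes under a signal of 100, and they turned to 0.46 and 0.39 after quantile normalization. The constitutive proteasome subunits they stand beside or replace were close to equal, with 7 of 8 above 0 and a median of 0.08. Psmb5, which Psmb8 replaces, had a difference of 0.15.

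Cxcl10 was the single chemokine of the list and the member with the largest higher reading. This attractant of T cells, induced by either kind of interferon, read 60.1 in knockout lens and 16.9 in control lens, where it was not well above background. It was at least 2.94-fold higher. Among genes above background in knockout lens only, 6.36% had a bound of at least 2-fold higher. The reading rests on 1 spot per array. Besides Cxcl10, 2 members were above background in knockout lens alone, Gbp2 and Usp18. The 7 members below the call on both arrays were Ifih1, Dhx58, Ifit1, Oas2, Oas3, Parp12 and Tap1, whose 8 probes read between 2.40 and 12.2 in knockout lens and between 4.11 and 21.8 in control lens.

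Interferons themselves were at the edge of detection. Of 21 ligand genes 16 had a probe, 5 were measured, 5 were above background in control lens only, 5 on neither, and 1 on each array through different probes. All 5 measured ligands lay below 0, 2 at least 2-fold lower, with a median of -0.72, and 4 of the 5 had a mean signal under 100, the range in which 20.0% of genes were at least 2-fold lower. Ifna11 read 13.5 in knockout lens and 63.1 in control lens, a difference of -2.22, and Ifna12 had -1.02, Ifna14 -0.72 and Ifnl3 -0.66. Ifnk and Ifna13 were at least 3.77-fold and 3.70-fold lower, from the control array alone. The alpha interferon genes are near-identical copies, so their probes cannot be taken as separate genes. Ifnb1, the type I gene that is induced early, and Ifng, interferon gamma, were above background on neither array.

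Receptors and kinases showed no common direction. Of 8 measured genes 4 lay below 0 and 4 above, 0 reached 2-fold in either direction, and the median was 0.06. Jak1, the kinase shared by the interferon receptors, read 2164 in knockout lens and 1595 in control lens, a difference of 0.45 (spot SD 0.11). Ifnar2 read 1321 and 1102 on the knockout and control arrays, a difference of 0.28, and its partner chain Ifnar1 had a difference of -0.22 over 3 probes. Jak2, a kinase of the interferon gamma receptor, had a difference of 0.22. The negative regulators had a median of 0.15 with 0 of 6 measured genes past 2-fold. Ptpn6, a phosphatase of blood cells, had the largest difference of that list at -0.77, and Ptpn11, Ptpn2 and Socs3 had 0.34, -0.20 and 0.20.

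Genes of nucleic acid sensing upstream of interferon split evenly, with 8 of 15 measured genes below 0, 7 above, 0 past 2-fold and a median below 0 by less than 0.01. Cgas, the DNA sensor, read 30.9 in knockout lens and 49.9 in control lens, a difference of -0.64. Sting1, the adaptor that Cgas activates, read 330.4 in knockout lens and 249.8 in control lens, a difference of 0.42 (spot SD 0.13). Tlr7, a receptor for single-stranded RNA, had a difference of -0.44, and Samhd1, a nucleotide hydrolase, one of 0.28. Tlr3, a receptor for double-stranded RNA, was read by 1 spot at 2.53 in knockout lens and 86.2 in control lens, at least 7.04-fold lower.

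Further interferon-induced genes outside the 39 were mostly dim. Of 61 such genes 34 were measured, 29 of them below 0, with a median of -0.45. At least 2-fold lower were 8 genes and at least 2-fold higher 0. All 8 were among the 24 genes with a mean signal under 100, where 76.9% of all genes lay below 0 and 20.0% passed 2-fold lower, and 0 of the 10 brighter genes passed, of which 7 lay below 0, with a median of -0.12. Lgals9, a galectin, read 25.01 in knockout lens and 85.7 in control lens, a difference of -1.76. Slfn2, Irgm1 and Gbp7, a schlafen protein and a pair of GTPases of cell-autonomous defence, had differences of -1.63, -1.55 and -1.37. Of this list 5 genes, Ifi204, Trim21, Gbp5, Ifit3b and Phf11d, were above background in knockout lens only, and 4 in control lens only. Gbp5 read 24.0 in knockout lens and 21.0 in control lens, a ratio of 1.15, and Ifit3b was at least 1.42-fold higher. Epsti1 and Gbp6, above background in control lens only, were at least 4.45-fold and 4.07-fold lower.

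The heavy chains of class I molecules went against this direction. H2-D1, which presents peptides together with B2m, read 429 in knockout lens and 190.6 in control lens, 2.27-fold higher with a difference of 1.19 (spot SD 0.13). H2-K1 was 2.13-fold higher, with its 2 probes at 332 and 212 in knockout lens and 124 and 127 in control lens. The H2-K1 probes differed by 1.43 and 0.75, the same way but by unequal amounts. Under normexp correction the differences of H2-K1 and H2-D1 were 0.84 and 0.97, short of 2-fold. H2-K1 was short of it too, at 0.96 with the 75th percentile over measured probes and at 0.90 without background subtraction. Both genes stayed above 0 in all 11 settings. At signals of 100 and over, 1.01% of genes were at least 2-fold higher. H2-T23 had a difference of 0.53, and Tapbp, the peptide-loading protein tapasin, one of -0.40. The list of other class I and immunoproteasome genes had 2 of 14 measured genes 2-fold higher or more, 0 as much lower, and a median of 0.09. Class I heavy chains are polymorphic between strains and alike in sequence, and the mice were of mixed background, so their readings as single genes are uncertain.

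**Figure D4:**
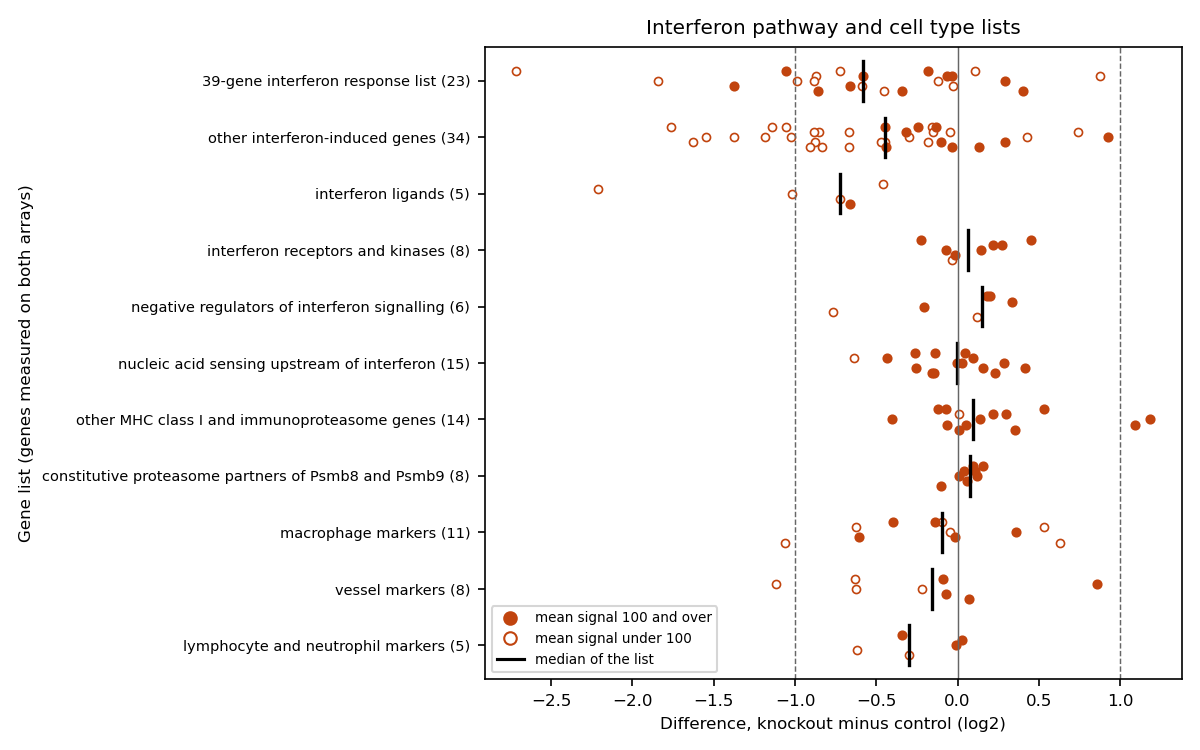
Difference (log2, knockout minus control) of each measured gene in the interferon response list and in 10 further lists of the pathway and of cell types, with the number of measured genes in parentheses. Filled points have a mean signal of 100 and over and open ones under 100, black bars are list medians and dashed lines mark 2-fold. Low values gather in the response list and among other interferon-induced genes, mainly as open points, and 2 class I genes lie above the upper line.

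Immune cells and vessels around the lens express several of these genes, and their markers were measured beside them. Of 15 macrophage markers 14 had a probe and 11 were measured, 8 below 0 and 3 above, with a median of -0.10 and a summed signal of 2483 in knockout lens and 2608 in control lens. Itgam alone made up 1196 of the knockout sum and 1285 of the control sum. Over all measured genes, 76.9% of those under a signal of 100 lay below 0 and 39.9% of those at 100 and over. Csf1r, C1qa, C1qb and Tyrobp had differences of -0.14, -0.05, -0.02 and -0.10. Adgre1, Fcer1g and Cx3cr1 had differences of -0.40, 0.36 and 0.53. Ptprc, the leukocyte antigen CD45, read 19.1 in knockout lens and 40.3 in control lens, a difference of -1.06, and C1qc, Aif1 and Itgam had 0.63, -0.63 and -0.61. The Itgam value is the mean of 3 probes that disagreed, with an SD of 0.70 over probes. Mrc1 and Cd163 were above background in knockout lens only, with ratios of 1.57 and 1.05 to their dim control readings. Lyz2 was above background in control lens only, at least 3.50-fold lower. Vessel markers had a median of -0.16 over 8 measured genes, with 6 below 0, and summed signals of 1951 in knockout lens and 2033 in control lens. Kdr alone made up 1070 and 1124 of these sums. Emcn had a difference of -1.12, Tek 0.86, and Pecam1 and Esam -0.63 each. Of lymphocyte and neutrophil markers 5 were measured with a median of -0.30 and summed signals of 1904 and 2015. Cd4 alone made up 1163 of the knockout sum and 1152 of the control sum, a difference of 0.03. This is the reading of 1 of 2 Cd4 probes, and the mean over both was 587 in knockout lens and 601 in control lens. Cd3e, S100a8, S100a9 and Elane had differences of -0.34, -0.62, -0.30 and -0.01. Ms4a1, a defining gene of B cells, was above background on neither array. Ncr1 and Cd8a were above background in control lens only and were at least 7.04-fold and 3.21-fold lower. Of all genes above background in control lens only, 92.9% had a bound of at least 2-fold lower.

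Markers of other neighbouring tissues differed in both directions. Retina and neuron markers had 8 of 9 measured genes above 0, a median of 0.46 and summed signals of 7915 in knockout lens and 5428 in control lens. Pigment epithelium markers had 5 of 5 below 0 and a median of -0.37, with sums of 2614 and 2945. The 4 measured erythroid markers all lay below 0, with a median of -0.31 and sums of 12964 and 15771. Most measured markers of these lists had mean signals of 100 and over, where 39.9% of all measured genes lay below 0. Col1a1 and Col3a1, 2 of 4 measured mesenchyme markers, passed 2-fold higher. Both had mean signals under 100, where 1.07% of all measured genes did so. The median of the 4 markers was 0.53, with sums of 959 and 882. Of these sums the Pdgfra probe made up 709 in knockout lens and 725 in control lens. Dcn and Lum were above background in knockout lens only, at least 7.18-fold and 2.39-fold higher. Of all genes above background in knockout lens only, 6.36% had a bound of at least 2-fold higher. The part of these cell populations in the readings of the interferon response genes was not tested.

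Values of the measured genes under other processing are plotted for each setting. Ifi44, Irf5 and Gbp3 were below 0 in each setting that gave them a value, and Oasl2 and Trim25 were above 0 in each. The other 18 measured genes took both signs over the 11 settings. Without array medians 9 genes still took both signs, among them Psmb8, Psmb9, Ifit3 and Parp9. Array medians raise every gene alike, and relative to the median of all genes B2m, Bst2, Gbp3, Ifi35, Ifi44, Ifit2, Ifitm3, Irf5, Irf9, Isg15 and Rsad2 were below in every setting that gave them a value. On the same footing Irf2, Oasl2 and Trim25 were above in every such setting, and the other 9 took both sides.

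**Figure D5:**
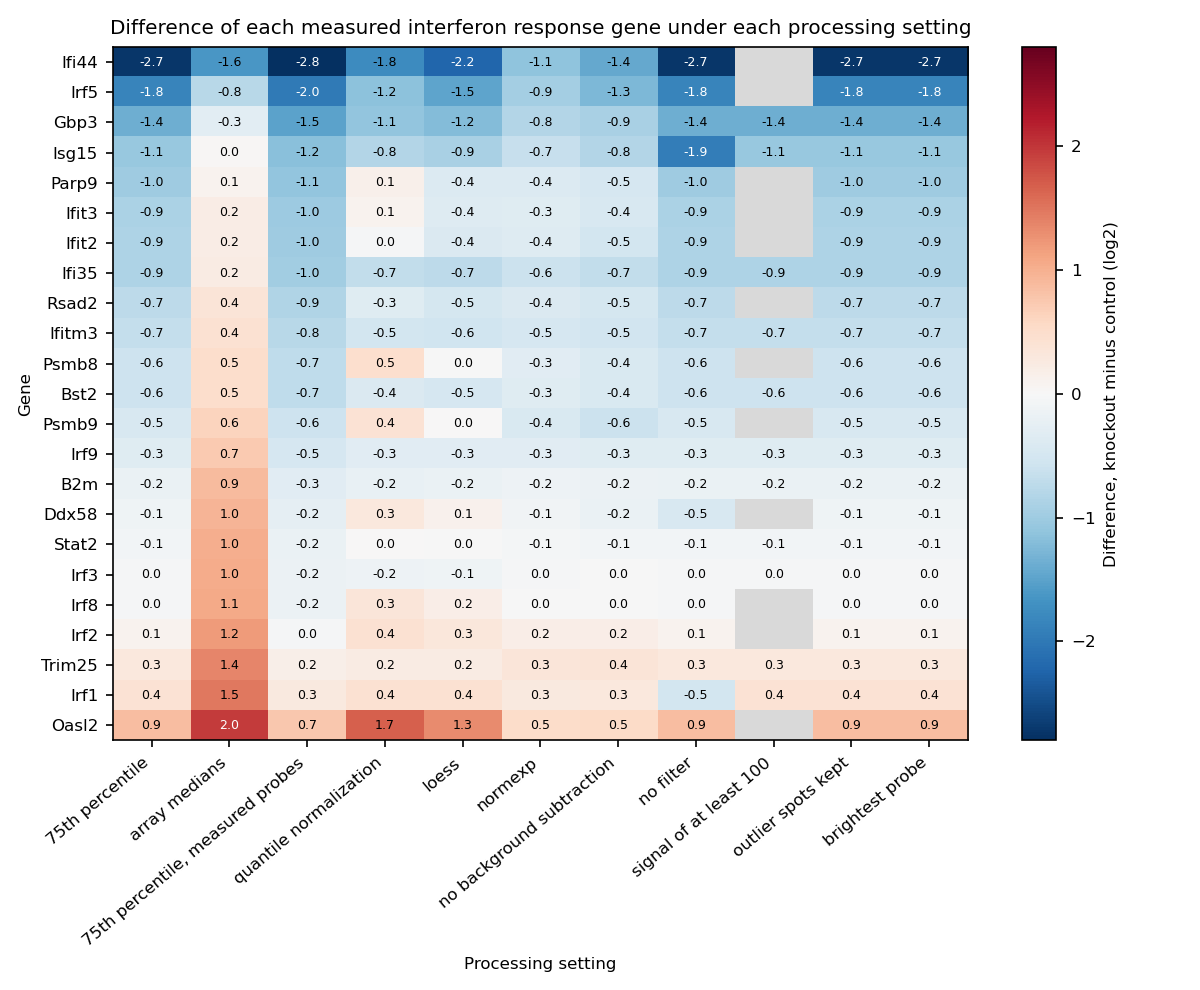
Difference (log2, knockout minus control) of the 23 measured interferon response genes, in rows, under 11 processing settings, in columns, with blue lower and red higher in knockout lens. Grey cells have no value because the gene's mean signal is under 100. Ifi44, Irf5 and Gbp3 are blue in every filled cell, and the column of array medians is shifted upward as a whole.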

How the data were processed

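Spot intensities of 1 knockout and 1 control array were used as the authors deposited them. Per the file headers, Agilent Feature Extraction 10.7.3.1 made them, with a probe layout on build mm9, including background subtraction, and no scaling between arrays is recorded. Yes or no flags for background and outliers are the authors' deposited values in the same files. Outlier spots of either array and control spots were dropped, and 26 probes lost all their spots this way. The log2 of each processed signal minus the 75th percentile of its array was averaged over spots, then over the measured probes of a gene. A probe was measured when, on each array, over 50% of its spots had the well-above-background flag. Of 55655 probes, 27225 were named through accessions of the GRCm38.p6 annotation and 28430 were not. A gene above background on 1 array was given a bound against the higher of its dim value and the lowest signal well above background there. Where the dim value was the higher, the bound is the plain ratio of the scaled readings. A fixed size of 2-fold stood in for a test, since 1 array per genotype allows none, and the number of arrays limits the precision. The steps were tested on simulated data with Python 3.11.15, numpy 2.4.6 and pandas 2.3.3. The normexp correction used limma 3.58.1 and loess used statsmodels 0.14.6. The genes and lists were chosen with earlier results of these data known. All genes of the list are accounted for. Some genes of the other lists are not reported here, and the counts of those lists leave them out. Of each other list described, up to 4 measured genes with the largest absolute difference and up to 2 with the largest bound are named, and further genes there were named after their values were seen. Alternatives were other scalings, background corrections, filters and probe choices.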

Additional observations from a re-analysis of the deposited data

How the results depend on the processing

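No paired analysis was possible because each genotype has 1 array. The count of interferon response genes at least 2-fold lower, 4 as reported, was 6 with the 75th percentile over measured probes, 3 after loess or quantile normalization, 2 among genes with a signal of at least 100, 1 with array medians and 10 with no filter on background. Over all genes 7.59% were lower with the 75th percentile over measured probes, 2.55% after loess and 1.48% after quantile normalization. The share was 1.19% among genes with a signal of at least 100, 0.709% with array medians and 21.6% with no filter. The count at least 2-fold higher, 0 as reported, was 7 with array medians, where 61.2% of all genes were. It was 1 each after loess, quantile normalization and with no filter, where 1.87%, 4.51% and 1.42% of all genes were. The files used have no mean spot signal, so normexp correction and signals without background subtraction were run on the median spot signal, an alternative chosen after seeing the data. These gave 1 and 2 lower genes, where 0.695% and 1.52% of all genes were lower. A signal of at least 100 on both arrays, also chosen after seeing the data, left 0 lower genes and a median of -0.12. The median difference of the measured genes, -0.58 as reported, was -0.32 after loess, -0.34 with normexp, -0.34 at signals of at least 100 and -0.023 after quantile normalization, and it turned to 0.49 with array medians, which raised every gene by the same amount. Isg15 turned to 0.025 under array medians. Keeping outlier spots or taking the brightest probe changed neither count. Counts of genes above background were 26 in knockout lens and 27 in control lens, 36 on each by the software's significance flag, and 8 and 15 at a signal of at least 100.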

Other observations

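Interferon-induced genes whose proteins are known partners lay on opposite sides for Nmi with Ifi35 and on the same side for Dtx3l with Parp9. Nmi, the partner of Ifi35, read 411 in knockout lens and 218 in control lens, a difference of 0.93, whereas Ifi35 had -0.86. Eif2ak2, the RNA-activated kinase PKR, read 77.4 in knockout lens and 46.7 in control lens, a difference of 0.74. Dtx3l, the partner of Parp9, had a difference of -0.24, against -0.99 for Parp9. Zc3hav1, a further ADP-ribosyltransferase family member that binds viral RNA, read 6.33 in knockout lens and 45.2 in control lens with 1 spot, at least 3.69-fold lower. These genes were named after their values were seen.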
